A study of Chlamydomonas reinhardtii with 12 samples.

Results

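The 9 nuclear genes of Chlamydomonas reinhardtii described here encode the photosystem I subunits PSAD (Cre05.g238332), PSAE (Cre10.g420350), PSAF (Cre09.g412100), PSAG (Cre12.g560950), PSAH (Cre07.g330250), PSAK (Cre17.g724300), PSAL (Cre12.g486300), PSAN (Cre02.g082500) and PSAO (Cre07.g334550). They were chosen by gene identifier and not by a rule on measured values, although earlier results of these data were known. All 9 were present among the 17744 identifiers of the deposited count table. The symbols come with the choice of identifiers, and neither the table nor the gene table used here pairs identifiers with symbols.

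Transcript 3' ends were counted in 12 bulk libraries of a unicellular green alga kept in darkness for 4 weeks at 25 °C. The 6 WT libraries are of the parental line labelled CC-3403, which was given TAP, a medium with acetate, plus arginine at 10 µg/mL. The other 6 libraries, PDSKO, are of transformants of that line in which phytoene desaturase (PDS), an early enzyme of carotenoid synthesis, was knocked out with Cas9 ribonucleoprotein. They were grown in TAP without arginine and sorted by fluorescence, so arginine, the sort and the selection plasmid differed along with genotype. PDSKO 1 to 4 are of line E10, PDSKO 5 of line A2 and PDSKO 6 of line D2, so each line is 1 transformant and A2 and D2 have 1 library each. The titles of WT 1 to 3 (X3404VE, a number other than that of CC-3403) share their style with those of E10, and the titles of WT 4 to 6 share theirs with A2 and D2. Nothing says that these title sets were batches. Although the parental samples are labelled independent, no source names separate cultures. The p-values below therefore speak of the spread among these libraries, which may be technical. The labelled vegetative state was not checked with markers.

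Photosystem I is the light-driven enzyme of the thylakoid membrane that takes electrons from plastocyanin in the lumen and passes them to ferredoxin in the stroma. Its reaction centre proteins are made in the chloroplast, whereas the subunits described here are made in the cytosol and imported. PSAD and PSAE form the stromal side on which ferredoxin docks. PSAF takes part in the docking of plastocyanin, and PSAN is a further subunit on the lumenal side. PSAG and PSAK sit at the edges of the complex next to its LHCA antenna. PSAH, PSAL and PSAO lie on the side where mobile antenna of photosystem II docks during state transitions. Chlamydomonas makes chlorophyll in darkness and, given acetate, builds thylakoids without light.

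Depth differed strongly between genotypes. WT libraries held 1393032 to 35992976 counts and PDSKO libraries 6279 to 475103, so 1 count stood for 0.0278 to 0.718 counts per 1000000 counts (CPM) in WT and for 2.10 CPM in PDSKO 5 to 159 CPM in PDSKO 2. The targeted gene PDS1 (Cre12.g509650) stood at 21.6 to 113 CPM in WT and at 0 counts in PDSKO 1, 3, 5 and 6. It had 2 counts each in PDSKO 2 and PDSKO 4, at 319 and 122 CPM. For 0 counts the Poisson interval of PDS1 reached up to 91.2 CPM in PDSKO 1, 204 CPM in PDSKO 3 and 102 CPM in PDSKO 6. These limits lie within or above the WT range, so 0 counts there cannot tell a lower level from a WT level. In PDSKO 5 the interval ended at 7.76 CPM, under every WT library. The E10 libraries resembled parental libraries of their own title set. Across 1038 identifiers with a WT mean of 100 CPM or more, PDSKO 1 had a Spearman rho of 0.87 with WT 1 and of 0.51 or less with any other PDSKO library. PDSKO 3 and PDSKO 4 each had a rho of 0.86 with WT 3 and of 0.78 with each other. The nearest library of PDSKO 2 was WT 2, with 0.66. Libraries A2 and D2 had at most 0.46 and 0.57 with any WT library. These values are across identifiers, which are not replicates, and shallow libraries give lower ones. Why E10 libraries lay so near WT libraries was not tested. Whether part of the E10 counts came from reads of the far deeper WT libraries was not tested either, which bears on every E10 level and every comparison with E10. The comparison of all 12 libraries is therefore also given without E10. One identifier, Cre07.g323800, took 43.3% of the counts of A2 and 0.260 to 5.33% of the other libraries.

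**Figure D1:**
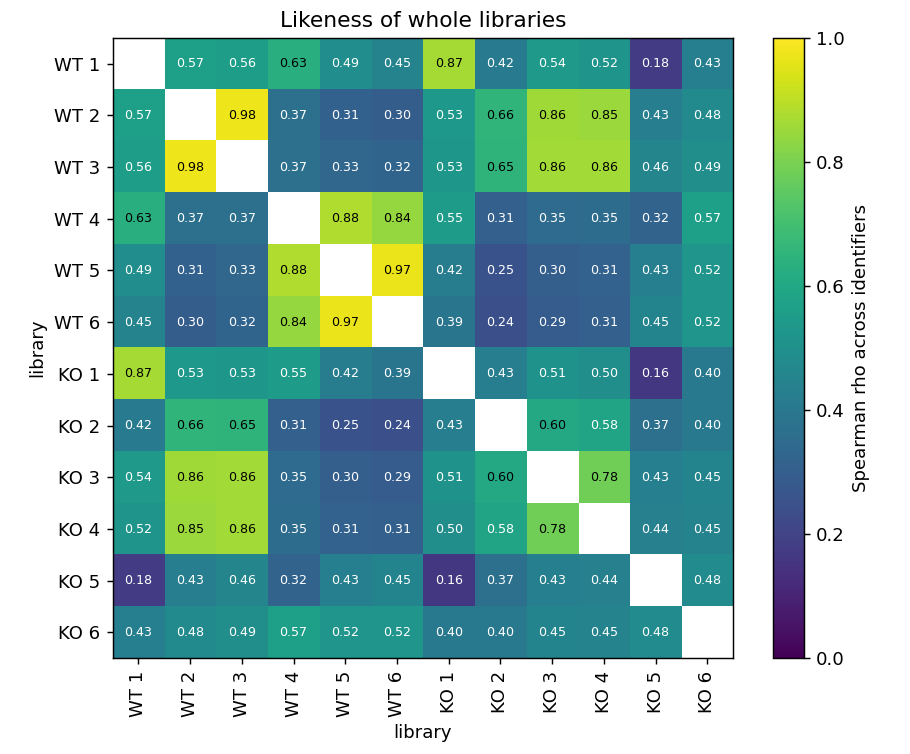
Spearman rho between libraries across 1038 identifiers with a WT mean of 100 CPM or more (rows and columns are libraries, KO stands for PDSKO, colour and printed value give rho). KO 1 lies nearest WT 1 (0.87), KO 3 and KO 4 nearest WT 3 (0.86), while KO 5 (A2) and KO 6 (D2) lie apart from all.

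Together the 9 transcripts took 0.361 to 2.67% of all counts in WT and 0.133 to 1.80% in PDSKO. Within WT their share was 2.67% in WT 1, 0.364% in WT 2, 0.361% in WT 3, 1.48% in WT 4, 1.13% in WT 5 and 1.02% in WT 6. Each of these rests on 14180 or more counts, and the 95% Wilson interval is widest in WT 6, at 1.00 to 1.03%. In E10 the share was 1.80% in PDSKO 1 (interval 1.68 to 1.94%), 0.207% in PDSKO 2 (0.121 to 0.354%), 0.337% in PDSKO 3 (0.262 to 0.433%) and 0.282% in PDSKO 4 (0.211 to 0.376%). PDSKO 1 thus stood above WT 4 to 6, and the others of E10 stood below every WT library, although the intervals of PDSKO 3 and PDSKO 4 hold the values of WT 2 and WT 3. The share was 0.133% in A2 (0.123 to 0.144%) and 0.496% in D2 (0.429 to 0.574%), both under WT 4 to 6. A2 also stood under WT 1 to 3, whereas D2 stood above WT 2 and WT 3 and thus inside the range of the parental libraries. Without Cre07.g323800 in the totals, A2 stood at 0.235%. Intervals cover counting error only. In bulk RNA, fewer cells that hold a transcript and less of it per cell cannot be told apart.

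**Figure D2:**
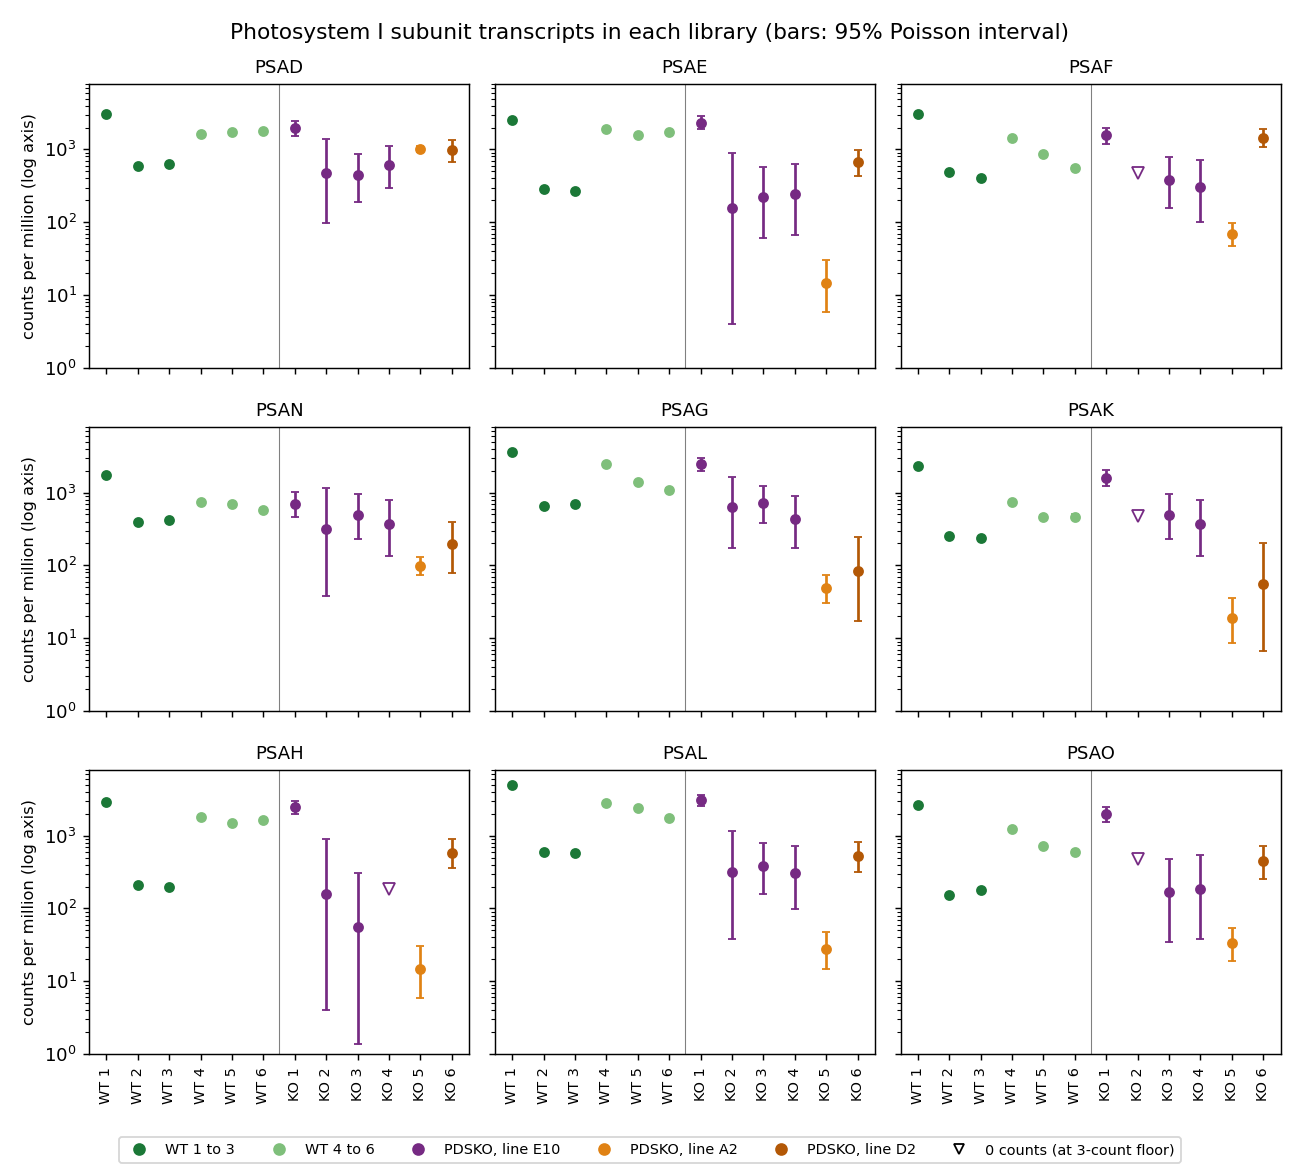
Level of each subunit transcript in each library, in CPM on a log axis, with 95% Poisson intervals that cover counting error only (too narrow to see in WT) and open triangles at the 3-count floor for 0 counts. In A2 (KO 5) PSAD stands at 1008 CPM and the other 8 at 14.7 to 98.9, and in D2 (KO 6) PSAF stands at 1442 CPM.

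Parental dark cultures differed among themselves in all 9 transcripts. Every subunit was highest in WT 1 and lowest in WT 2 or WT 3, with a ratio of highest to lowest from 4.41 for PSAN to 17.2 for PSAO. PSAL had 4935 CPM in WT 1, 597 in WT 2, 577 in WT 3, 2815 in WT 4, 2374 in WT 5 and 1752 in WT 6. PSAH had 2934, 213, 198, 1809.5, 1501 and 1637 CPM in this order. PSAO had 2626, 153, 177, 1233, 721 and 593 CPM. These docking-side subunits thus spanned 8.55-, 14.8- and 17.2-fold over 6 libraries of the same labelled line. The stromal PSAD had 3022 CPM in WT 1, 595 in WT 2 and 624.7 in WT 3, and PSAE had 2515, 290.1 and 265 CPM. On the lumenal side PSAF had 3090.0, 488 and 405 CPM and PSAN had 1734, 393 and 422 CPM. At the antenna edges PSAG had 3589.5, 655 and 706 CPM and PSAK had 2281, 256 and 239 CPM. WT 2 and WT 3 differed from each other by at most 1.21-fold in any subunit, in PSAF, and WT 1 stood 4.11- to 17.2-fold above them.

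WT 1 to 3 were compared with WT 4 to 6 to ask whether the parental libraries of the title sets differ. Their ranges overlapped for all 9 subunits, and edgeR called 0 of the 9 lower or higher, where 9.31% of 13040 identifiers tested were called lower and 11.1% in either direction. Log2 fold changes ran from -1.003 ± 0.87 (SE) for PSAE to 0.54 ± 0.86 for PSAK, with edgeR adjusted p from 0.515 to 0.979. WT 1 alone sets this outcome. Without it, all 9 were lower in the first set, from -1.24 ± 0.29 for PSAN to -3.53 ± 0.33 for PSAH (edgeR adjusted p from 1.36e-05 to 0.00811), beside 17.9% of 13462 identifiers called lower.

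The make-up of the counts differed as well as their sum. The share of each subunit in the counts of the 9 does not depend on library totals or scaling. PSAH made up 5.85% of them in WT 2 and 5.48% in WT 3, against 11.0 to 16.1% in the other WT libraries. PSAO made up 4.19% and 4.89% there, against 5.83 to 9.83%. PSAN went the other way, with 10.8% and 11.7% against 5.02 to 6.49%, and so did PSAG, with 18.0% and 19.5% against 10.6 to 16.7%. PSAL kept to 16.0 to 20.9% in all 6. WT 2 and WT 3 are set apart here after their values were seen, so these shares are a description without a test.

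PDSKO was compared with WT over all 12 libraries, where arginine, the sort and the selection plasmid differed along with genotype. An effect of phytoene desaturase loss cannot be told apart from these. PDSKO 1 to 4 are all of the E10 transformant but entered the fit as separate libraries. Every subunit had a negative log2 fold change, yet the groups overlapped for each, where 2.99% of all identifiers tested were lower without overlap, and none passed the test. The PDSKO libraries ranged from 14.7 to 2325 CPM with a median of 233 for PSAE, and from 27.4 to 3067 with a median of 353 for PSAL. WT ranged from 265 to 2515 CPM with a median of 1659 for PSAE, and from 577 to 4935 with a median of 2063 for PSAL. Both ends of the PDSKO ranges belong to single libraries, A2 at the low end and PDSKO 1 at the high end.

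By fold change the subunits lay close together in this comparison. The largest log2 fold change was that of PSAL, at -1.92 ± 0.82 (SE, edgeR adjusted p = 0.182), and the smallest that of PSAD, at -0.89 ± 0.69 (adjusted p = 0.470). The median of the 9 was -1.62, and the median of all 4915 identifiers tested was -0.38, of which 61.7% were negative. edgeR called 0 of the 9 and 0% of all identifiers, with 1006 at an unadjusted p under 0.05, and DESeq2 called 0 of the 9. Over all identifiers DESeq2 called 0.814% lower and 6.47% higher. With RLE scaling the median of all moved to 0.29, with 13 identifiers called lower and 151 higher, and all 9 subunits stayed negative.

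The number called depended on which E10 libraries were kept. Without PDSKO 1 edgeR called 7 of the 9 lower, all except PSAD and PSAF, beside 8.32% of 6777 identifiers called lower. The log2 fold changes of the 7 ran from -2.54 ± 0.68 (SE) for PSAN to -3.91 ± 0.86 for PSAL, with edgeR adjusted p from 0.0400 to 0.0479. That fit still held the shallow E10 libraries PDSKO 2, 3 and 4, with 13, 61 and 46 subunit counts. Without all 4 E10 libraries, an alternative chosen after seeing the data, 0 of the 9 were called (0.00745% of 13420 identifiers were lower), and the median of the 9 was -3.23 beside -1.77 for all identifiers. With the 4 E10 libraries summed into a single library, 0 of the 9 were called, beside 0% of 11051 identifiers called lower and 0.00905% higher.

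Larger differences were seen in A2 and D2 when set against WT 4 to 6, whose titles share their style. These libraries are also part of the 12-library comparison, so the comparisons share samples. edgeR called 5 of the 9 subunits lower and none higher, where 7.49% of 8042 identifiers were called lower and 3.38% higher. The called ones were PSAG, PSAK, PSAL, PSAH and PSAE. The median log2 fold change of the 9 was -3.59, beside -0.92 for all identifiers tested. RLE scaling moved these medians to -2.91 and -0.42 and left 3 calls beside 4.25% of identifiers called lower and 5.45% higher, and library totals alone moved them to -2.36 and -0.74 and left 2 beside 3.84%.

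Both antenna-edge subunits fell in both lines. PSAG had 2460.5, 1379 and 1080.4 CPM in WT 4, 5 and 6, 48.4 CPM in A2 (23 counts) and 83.2 CPM in D2 (3 counts). Both lines lay far under the lowest WT library, and the log2 fold change was -5.07 ± 0.94 (SE, edgeR adjusted p = 0.00648). PSAK had 746, 459 and 464 CPM in WT, 18.9 CPM in A2 (9 counts) and 55.5 CPM in D2 (2 counts). Its log2 fold change was -4.61 ± 1.03 (edgeR adjusted p = 0.0161), and with A2 or D2 as the only knockout library it was -4.88 and -4.34.

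Of the docking-side subunits PSAL and PSAH fell, and all 3 stood lower in A2 than in D2. PSAL had 2815, 2374 and 1752 CPM in WT 4 to 6, 27.4 CPM in A2 and 527 CPM in D2, so that log2 fold was -4.21 ± 0.97 (SE), with edgeR's adjusted p = 0.0174. PSAH had 1809.5, 1501 and 1637 CPM in WT, 14.7 CPM in A2 and 582 CPM in D2, for a log2 fold of -3.69 ± 1.04 (edgeR's adjusted p = 0.0350). A2 and D2 lay under all of WT 4 to 6 for both, with D2 between A2 and WT 4 to 6. For PSAH, however, D2 stood above WT 2 (213 CPM) and WT 3 (198 CPM). With A2 as the only knockout library the log2 fold change of PSAL was -6.42 ± 0.73 and that of PSAH -6.84 ± 0.76. With D2 as the only one they were -3.15 ± 0.63 and -2.54 ± 0.61 (SE). By CPM, PSAL and PSAH stood in D2 at 22.8% and 35.3% of the WT 4 to 6 mean. The D2 median was 30.7% over 1003 identifiers with a mean of 100 CPM or more in WT 4 to 6, so PSAH in D2 was near that background. PSAO had 1233, 721 and 593 CPM in WT, 33.7 in A2 and 444 in D2, and did not pass, at -2.91 ± 0.96 on the log2 scale (edgeR's adjusted p = 0.0560).

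The stromal subunits parted from each other in A2. PSAE stood there at 0.842% of the WT 4 to 6 mean and PSAD at 58.7%. In D2 PSAE stood at 38.1% (Poisson interval 24.4 to 56.6%) and PSAD at 56.5% (39.3 to 78.5%). These D2 intervals, which cover counting error only, overlapped. Whether the change of PSAE differed from that of PSAD was not tested. PSAE had 1929.7, 1579 and 1739 CPM in WT 4 to 6, 14.7 CPM in A2 (7 counts) and 666 CPM in D2 (24 counts), and fell, at -3.59 ± 1.05 (SE) on the log2 scale (edgeR's adjusted p = 0.0385). PSAD had 1612, 1756 and 1788 CPM in WT, 1008 CPM in A2 (479 counts) and 971 CPM in D2 (35 counts). Its libraries did not overlap between the groups, but the log2 fold change of -1.16 ± 0.74 did not pass (edgeR adjusted p = 0.273). With Cre07.g323800 out of every total, PSAD stood at 1648, 1840 and 1889 CPM in WT 4 to 6, at 1777 CPM in A2 and at 1015 CPM in D2. On that basis A2 lay inside the WT range for PSAD, whereas PSAE stood at 26.0 CPM in A2.

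The lumenal-side subunits did not pass. PSAF had 1427, 861 and 555 CPM in WT 4 to 6, 69.5 CPM in A2 (33 counts) and 1442 CPM in D2 (52 counts), near the level of WT 4. Its log2 fold change was -1.38 ± 0.91 (SE, edgeR adjusted p = 0.287), and with A2 as the only knockout library it was -3.75 ± 0.66 (adjusted p = 0.00152). PSAN had 742, 705 and 571 CPM in WT, 98.9 in A2 (47 counts) and 194 in D2 (7 counts). It was lower in both lines, at -2.75 ± 0.88 on the log2 scale (edgeR's adjusted p = 0.0501).

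These calls rest on few libraries. They numbered 0 without WT 4 and 0 without WT 5, where 0.0892% and 0.316% of all identifiers were called lower, 2 without WT 6 (0.707%) and 8 without D2 (15.0%); with D2 as the only knockout library 6 were called (4.36%). A single knockout library is assumed by the fit to vary as the WT libraries do. The same contrast in a fit of all 12 libraries in 4 groups called PSAG alone, beside 5.35% of identifiers, and without Cre07.g323800 the fit called 3 (7.65%).

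As a share of the WT 4 to 6 mean the lines differed from each other. In A2 the subunits stood at 0.842 to 58.7% of it, with a median of 3.40%, and all 9 lay under every one of WT 4 to 6. With Cre07.g323800 out of every total they stood at 1.43 to 99.2% with a median of 5.78%, and 8 of 9 lay under every one of WT 4 to 6, PSAD being the exception. Among 1003 identifiers with a mean of 100 CPM or more in WT 4 to 6, which were chosen for being high there, the A2 median was 28.6%. Of them 75.5% lay under every one of WT 4 to 6. Without Cre07.g323800 these were 48.3% and 62.3%, over the other 1002. In D2 the subunits stood at 5.07 to 152% with a median of 35.3%, and 8 of 9 lay under every one of WT 4 to 6. By CPM, however, PSAD, PSAE, PSAF, PSAH and PSAO stood higher in D2 than in WT 2 and WT 3. Only PSAG, PSAK, PSAL and PSAN stood lower in D2 than in every one of WT 1 to 6. The D2 median over the same 1003 identifiers was 30.7%, with 75.8% under every one of WT 4 to 6. The subunits in D2 were thus near that background as a set. Of the 8042 identifiers tested, 41.0% were lower without overlap in A2 and D2 together, and 8 of the 9 subunits were. Without Cre07.g323800 the subunits numbered 7, beside 50.7% of the 1002 identifiers. With 1 library for each line, the difference between A2 and D2 has no replicate check.

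**Figure D3:**
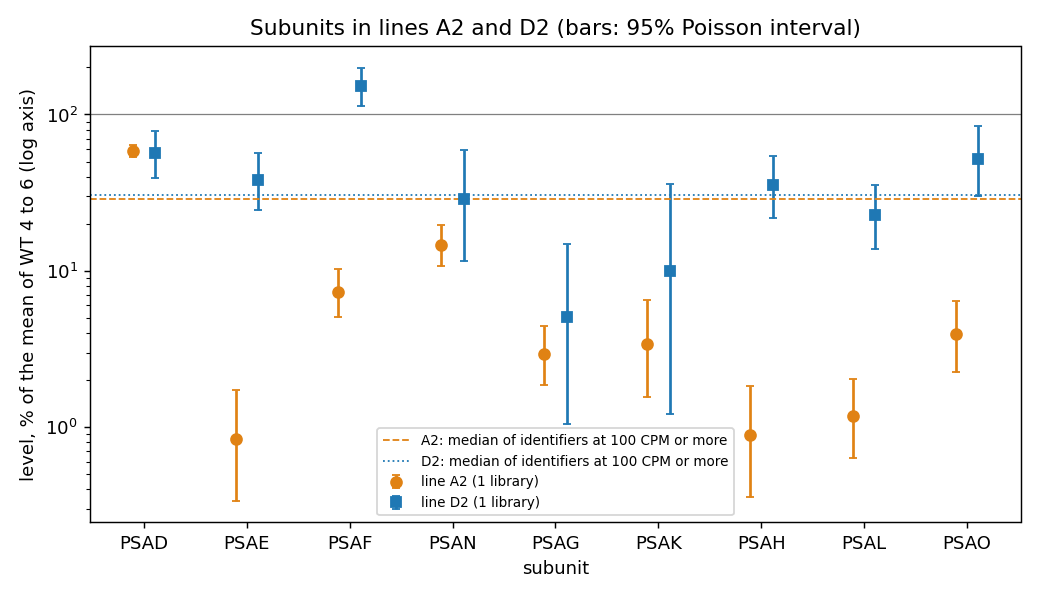
Level of each subunit in A2 and in D2 as a percentage of the mean of WT 4 to 6 (log axis; 95% Poisson intervals that cover counting error of the knockout library only; grey line at 100%), with the median of 1003 identifiers at 100 CPM or more in WT 4 to 6 as a dashed (A2, 28.6%) and a dotted line (D2, 30.7%). PSAE, PSAH and PSAL stand near 1% in A2 and at 22.8 to 38.1% in D2, while PSAD stands at 58.7% (99.2% without Cre07.g323800 in the totals) and 56.5%.

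The make-up of the counts set A2 and D2 apart from every WT library, whatever the library totals. PSAD made up 75.6% of the 634 subunit counts of A2 (Wilson 95% interval 72.1 to 78.7%), against 10.9 to 17.6% in WT. PSAE, PSAH and PSAL made up 1.10%, 1.10% and 2.05% in A2, against at least 7.34%, 5.48% and 16.0% in WT. In D2 PSAF made up 29.1% of 179 counts (22.9 to 36.1%), against 5.45 to 13.4% in WT. PSAG and PSAK made up 1.68% (0.572 to 4.81%) and 1.12% (0.307 to 3.98%) in D2, against at least 10.6% and 4.05% in WT. Relative to the WT 4 to 6 mean, PSAD was thus the highest subunit in A2 and PSAF the highest in D2, while PSAG and PSAK were the lowest pair in D2 and stood at 2.95% and 3.40% in A2.

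**Figure D4:**
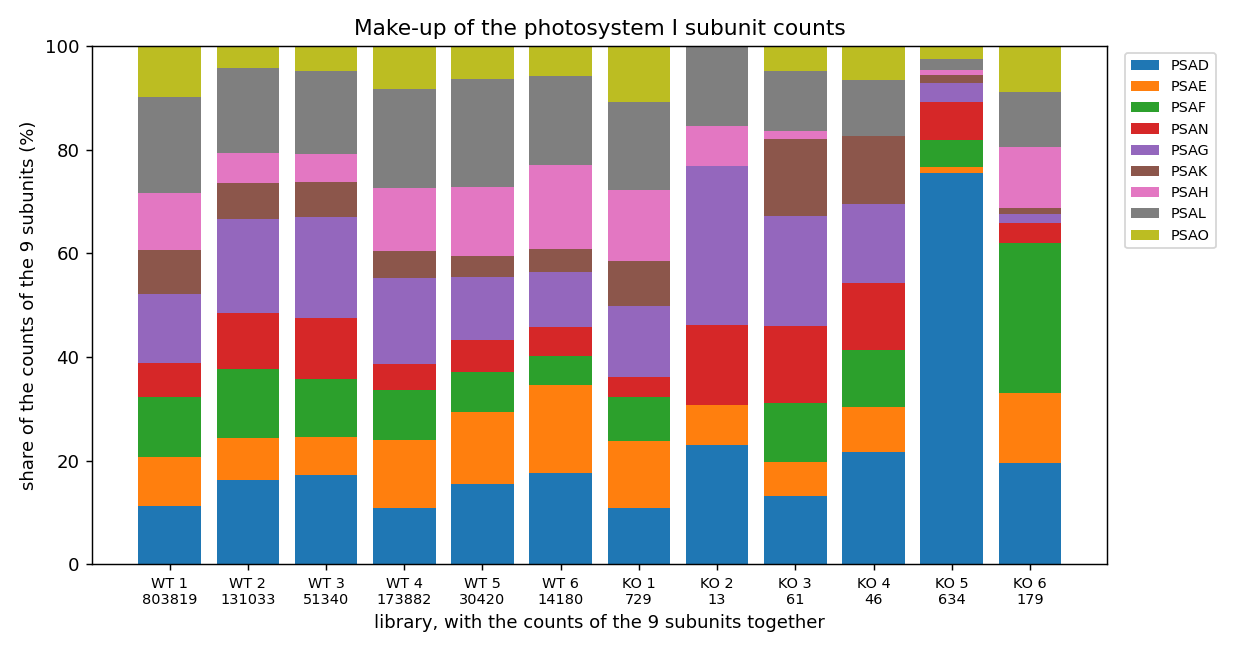
Share of each subunit in the summed counts of the 9 subunits, in %, for each library (KO stands for PDSKO), with that sum under its name. PSAD fills 75.6% of A2 (KO 5), PSAF 29.1% of D2 (KO 6), and KO 2 rests on 13 counts.

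In E10 against WT 1 to 3 no subunit passed the test. The 4 E10 libraries held 13 to 729 counts of the 9 subunits, and PSAH and PSAO had too few counts to be tested. The other 7 had log2 fold changes from -0.21 ± 1.31 (SE) for PSAE to -0.999 ± 1.22 for PSAF, all with an edgeR adjusted p of 0.994. edgeR called 0% of the 449 identifiers tested, with 6 at an unadjusted p under 0.05, and DESeq2 called 1. Levels in E10 followed single libraries: PSAL had 3067 CPM in PDSKO 1 (124 counts) and 319, 387 and 306 CPM in PDSKO 2, 3 and 4 (2, 7 and 5 counts). PSAE had 2325 CPM in PDSKO 1 and 159, 221 and 245 CPM in the others. PSAD had 1954, 478, 442 and 612 CPM in the 4 libraries in order. PDSKO 1 was thus the highest E10 library throughout, as WT 1 was in WT. Without WT 1, the 6 subunits then tested all turned positive, from 0.70 ± 0.57 for PSAN to 1.98 ± 1.14 for PSAK, and none passed (edgeR adjusted p = 0.853 for each).

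Whether the difference in E10 was unlike that in A2 and D2 was tested as an interaction over all 12 libraries. None of the 9 passed, where edgeR called 1 of 9044 identifiers (0.0111%), with 1446 at an unadjusted p under 0.05, and DESeq2 called 665, none of them a subunit. The largest estimate was that of PSAG, whose difference was 3.18 ± 1.43 (SE, log2) less negative in E10 (edgeR adjusted p = 0.283). PSAD and PSAF had negative estimates of -0.77 ± 1.28 and -1.18 ± 1.58. The median over the 9 was 1.67, beside -0.59 over all identifiers. A p that misses the threshold does not show that the lines responded alike.

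**Figure D5:**
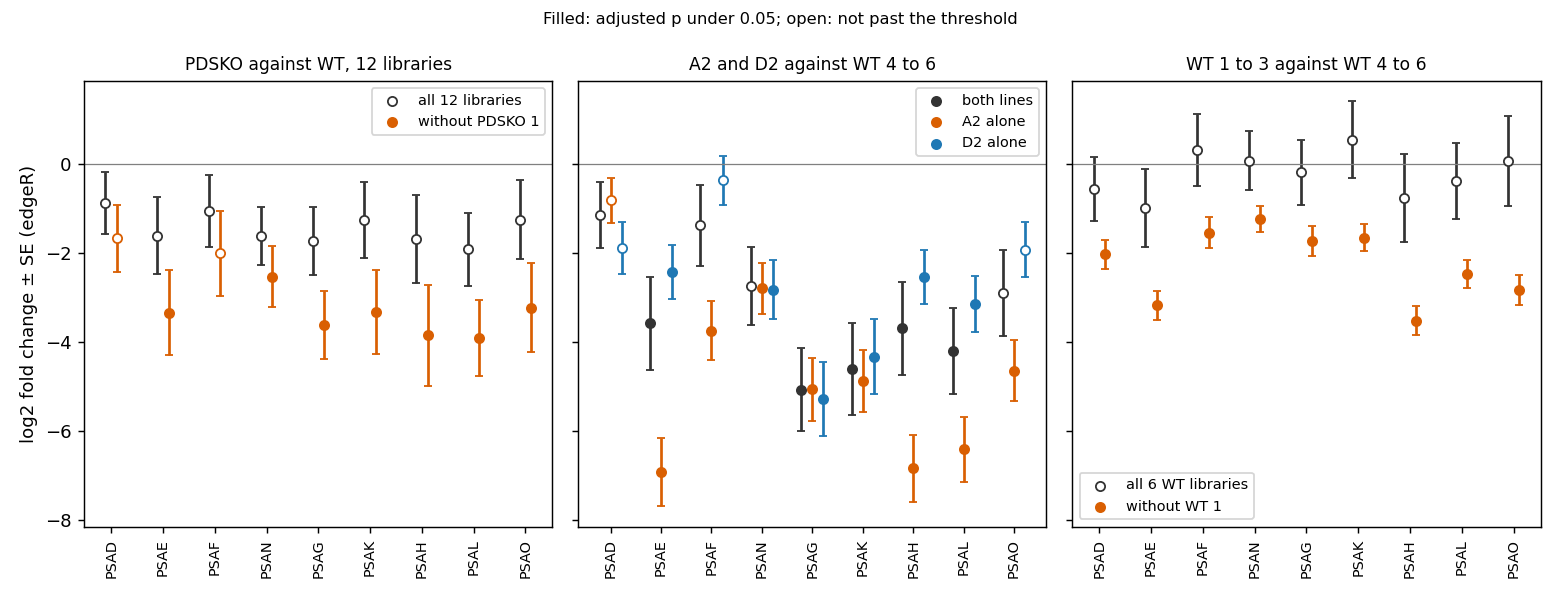
Log2 fold change ± SE of each subunit from edgeR in 3 comparisons, each also with 1 library left out (filled: adjusted p under 0.05; open: above it). Leaving out PDSKO 1 brings 7 of 9 past the threshold in the 12-library comparison, and leaving out WT 1 brings 9 of 9 past it between the parental title sets.

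Some partners of photosystem I fell as well. In A2 and D2 against WT 4 to 6, 7 of 9 LHCA antenna identifiers, the antenna next to PSAG and PSAK, were called lower with a median log2 fold change of -3.46. Of 8 identifiers of nuclear photosystem II subunits 3 were called lower (median -2.52), and of 6 electron carrier and cytochrome b6f identifiers 1 was (median -1.69), namely plastocyanin PCY1 (Cre03.g182551), which feeds electrons to photosystem I, at -2.86 ± 0.89 (SE, edgeR adjusted p = 0.0470). None of the 32 identifiers of these lists and the subunits was called higher there. In the 12-library comparison none of the 32 was called. The background is the 7.49% called lower in the former and 0% in the latter. PCY1 had 9827, 4928 and 4177 CPM in WT 4, 5 and 6. It had 105 CPM in A2 (50 counts) and 3549 CPM in D2 (128 counts), so most of its fall was in A2. Whether the calls of these lists hold with single libraries left out was not examined. The symbols of the LHCA, photosystem II and carrier identifiers come from general knowledge, and their pairing with identifiers could not be checked here.

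The balance of photosystem I to its antenna and to photosystem II varied among libraries. Subunit counts were 0.803, 0.884 and 0.895 times the LHCA counts in WT 4 to 6, 0.684 times in WT 1, and 3.05 and 3.56 times in WT 2 and WT 3. They were 2.74 times in A2, 1.40 times in D2, 0.725 times in PDSKO 1 and 2.30 to 3.39 times in the other E10 libraries. A2 and D2 thus lay above all of WT 4 to 6 in this ratio and below WT 2 and WT 3. In A2, however, PSAD alone gave 479 of the 634 subunit counts, beside 231 LHCA counts. The A2 ratio therefore rests mostly on PSAD and does not speak for the other subunits. Against photosystem II the ratio was 0.405 to 0.612 in WT 4 to 6, 0.217 in A2 and 0.471 in D2. It was highest in WT 1 and PDSKO 1, at 1.09 and 1.29. These ratios are sums over chosen genes and carry no test.

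Among 1930 identifiers with a WT mean of 50 CPM or more, the profile over the 6 WT libraries nearest to the median subunit profile was that of Cre06.g293950. Its root mean square distance on the centred log2(CPM + 1) scale was 0.204, and PSAL and PSAG came next at 0.212 and 0.226. The next outside the subunits were Cre02.g144750 (0.240), Cre12.g523300 (0.241), Cre06.g268600 (0.250) and Cre01.g038400 (0.276), which the sources used here do not name. PSAD, PSAK, PSAF and PSAN followed at ranks 11, 16, 19 and 26 and PSAO at rank 41. PSAE and PSAH lay farther off, at ranks 66 and 129 with distances of 0.542 and 0.687. The subunits themselves define the median profile, so their own small distances are partly built in. The distance shares its libraries with the levels above and is a description over 6 libraries.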

How the data were processed

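Per the labels' protocols, RNA was turned into CEL-Seq libraries, which tag each sample by a barcode during reverse transcription and read the 3' end of transcripts. The deposited values are the authors' raw counts per identifier: second reads were mapped with BWA MEM against transcriptome 281_v5.6, multiply mapped reads were dropped, and MapAndGo did the counting. The submitters' processing notes also name edgeR, and no source used here states whether molecular identifiers were collapsed. Dropped reads can lower genes with near-identical copies. Each of the 9 subunits has 1 RefSeq transcript (assembly v5.5, whose coordinates are not used here).

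Each column was matched to its sample by title. The test was that of edgeR 4.0.16 (R 4.3.3), on the counts as deposited: filterByExpr by group, TMM scaling, glmQLFit and glmQLFTest, two-sided, Benjamini-Hochberg adjustment over all identifiers tested, threshold 0.05. Standard errors are the log2 fold change over the root of F. Alternatives used RLE scaling, library totals alone, DESeq2 1.42.0, no filter or one of 30 counts, Cre07.g323800 left out, library number as a replicate block, a factor for title set, E10 summed, a fit in 4 groups, and each library left out. The code was tested on simulated data. CPM are counts per 1000000 counts; intervals are 95% Wilson for shares and 95% exact Poisson for levels, and the floor is 3 counts. The genes named are the 9 subunits, PDS1, Cre07.g323800, list members with the smallest p and the 5 nearest profiles. The members and lists were chosen with earlier results of these data known. Promoter and protein sequences were not analysed here.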

Additional observations from a re-analysis of the deposited data

Results flagged for a closer look

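Of 36 sets of values checked (the 9 subunits, their share of counts and their ratios to the LHCA and photosystem II counts, each in WT, in PDSKO and in line E10), 20 held a single library far from the rest by Dixon's criterion. For normally distributed values chance gives about 1 in 20, but the values here are untransformed and were not checked for that. The E10 sets lie inside the PDSKO sets and the subunits move together, so the flagged sets are not separate observations. By this criterion PDSKO 1 was far above the other PDSKO libraries in 7 subunits. These were PSAD at 1954 CPM, PSAE at 2325, PSAG at 2449, PSAK at 1583, PSAH at 2449, PSAL at 3067 and PSAO at 1954. All of these except PSAK were also far from the other E10 libraries alone. PDSKO 1 was high in the same way, among PDSKO and among E10, for the share of counts taken by the 9 subunits (1.80%) and for their ratio to photosystem II counts (1.29). WT 1, the highest WT library for every subunit, was flagged for PSAN (1734 CPM), PSAK (2281 CPM) and the ratio to photosystem II counts (1.09). That the high library was numbered 1 in both groups goes with the Spearman rho of 0.87 between WT 1 and PDSKO 1, and its cause was not tested.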

How the results depend on the processing

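In the 12-library comparison the number of subunits called, 0, was 2 without a filter on low counts (6.35% of all identifiers called lower) and ran from 0 to 7 with single libraries left out (7 without PDSKO 1). In A2 and D2 against WT 4 to 6 the 5 calls became 3 with RLE scaling, 2 with library totals alone, 3 with a filter of 30 counts (13.4% of identifiers lower), 3 without Cre07.g323800, 1 in the fit of all 12 libraries and 7 with DESeq2 (7.81%), and ran from 0 to 8 with single libraries left out. Every log2 fold change of the 9 in these comparisons kept its direction under each alternative run. Between the parental sets the 0 calls ran from 0 to 9 (9 without WT 1); in E10 and in the interaction they remained 0 under each alternative run. The filter of 30 counts left no subunit to test in E10.

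The labels do not say that library numbers pair the samples, and the correlation of deviations from the group means exceeded 0.1 in 4 of 6 same-numbered pairs (0.38, 0.099, 0.18, -0.093, 0.18 and 0.11 for numbers 1 to 6), so the block is an alternative. Of the 6 PDSKO libraries 4 correlated best with their own number. Some differently numbered pairs of the same title set also exceeded 0.1, such as WT 2 with PDSKO 3 (0.17) and WT 6 with PDSKO 5 (0.17). Others did not, such as WT 1 with PDSKO 3 (-0.091). The group means are those of WT and PDSKO, so a likeness within title sets was not separated from pairing by number. With library number as a replicate block, 3 subunits (PSAG, PSAH and PSAL) were called in the 12-library comparison, beside 1.36% of identifiers called lower. There were 0 in A2 and D2, where 0.174% of identifiers were called lower against 7.49% without the block, and 0 in E10, where PSAK moved to 0.037.

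Estimates that missed the threshold changed sign with single libraries left out; the cause was not tested. In E10 log2 fold changes ran from -2.80 to 1.10 for PSAD, -3.62 to 1.04 for PSAF, -2.38 to 0.70 for PSAN, -2.83 to 1.23 for PSAG, -2.80 to 1.98 for PSAK and -3.94 to 1.49 for PSAL. Between the parental sets they ran from -1.55 to 0.81 for PSAF, -1.24 to 0.52 for PSAN, -1.74 to 0.27 for PSAG, -1.66 to 1.07 for PSAK, -2.48 to 0.13 for PSAL and -2.84 to 0.63 for PSAO. In the interaction they ran from -2.01 to 0.80 for PSAD, -0.62 to 5.51 for PSAE, -2.83 to 1.55 for PSAF, -0.037 to 1.88 for PSAN, -2.73 to 5.22 for PSAH, -0.33 to 4.43 for PSAL and -1.84 to 3.87 for PSAO. With library totals alone PSAG moved to 0.0080 between the parental sets and PSAD to 0.094 in the interaction. Depth limits E10 most, since 1 count in PDSKO 2 stands for 159 CPM.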
